A study of Mus musculus with 18 samples.

Results

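The mRNAs of 6 Ras GTPase activators, Dab2ip, Nf1, Rasa1, Rasa2, Rasa3 and Rasal2, were followed through a Kif5A RNA immunoprecipitation from mouse peripheral axoplasm. The genes were taken by their symbols from 15552 named genes listed in at least 1 of 2 deposited count tables, after earlier results on Kif5A against IgG were known. For that reason the values of these genes in the precipitates are given as a description with no test. All 6 were found, with 16 transcript rows in total: 15 in the dorsal root table, 13 in the sciatic nerve table and 12 in both. Axoplasm was prepared from dorsal root or sciatic nerve of C57B6 mice, and the labels name no transgene, deletion or drug in any group. Each biological repeat pooled 5 animals, and there were 3 repeats. Each tissue gave 3 groups of 3 libraries: a precipitate with a rabbit antibody to Kif5A, a precipitate with rabbit IgG as isotype control, and input lysate. The labels do not give the age or sex of the animals.

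Ras proteins switch on when they bind GTP and off when the GTP is hydrolysed. Ras GTPase activators speed up that hydrolysis and so act as brakes on the pathway from growth factor receptors through Raf and MEK to ERK. Nf1 encodes neurofibromin, whose loss in Schwann cells gives rise to nerve sheath tumours, and Rasa1 encodes p120RasGAP. Dab2ip (also called AIP1) and Rasal2 are further Ras GTPase activators, while Rasa2 and Rasa3 belong to the GAP1 family and Rasa3 also acts on Rap1. Kif5A is a heavy chain of kinesin-1, the motor that carries cargo, RNA granules included, outward along axons.

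The libraries held between 11610004 and 22616406 counts. No pair of libraries within a group agreed within sampling noise, so each counted once. Between 8.19% and 14.5% of genes had no count in the IgG libraries, against at most 3.17% in any Kif5A or input library. Levels are given as CPM, the raw count per 1000000 counts of library size, scaled with a TMM factor (trimmed mean of M-values) computed over all 18 libraries. The mRNA of Kif5a itself stood at 132.6 ± 37.6 CPM (SD, n = 3) in the Kif5A precipitates of dorsal root and 75.3 ± 59.95 in the IgG precipitates, with overlap. In sciatic nerve it stood at 13.6, 20.7 and 55.1 CPM in Kif5A and 4.77, 6.54 and 6.40 in IgG, without overlap. Myelinating Schwann cell markers summed to between 16970 and 27090 CPM in the 6 inputs. Neuronal markers summed to between 310.4 and 341.3 CPM in dorsal root inputs and between 162.0 and 201.4 in sciatic nerve inputs, and Prph was listed in neither table.

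Dab2ip lies on chr2:35558266-35730994, plus strand, in the GENCODE M21 annotation of GRCm38. Its 2 protein-coding rows, Dab2ip-201 and Dab2ip-204, share 5975 bases, which is 98.7% of Dab2ip-204, and differ only in their first exons. The stretches below show where the transcripts part, since the counts of both rows rest on almost the same exons. Capitals mark a start codon. The first codon of Dab2ip-201 (chr2:35692244-35692303 holds its first 60 coding bases) lies in an exon that Dab2ip-204 lacks. The start codon of Dab2ip-204 (chr2:35707658-35707717 holds its first 60 coding bases) lies in an exon that both contain, in the reading frame of Dab2ip-201 and 59 codons after its start. The exon junction of Dab2ip-201, spliced from chr2:35692381-35692410 and chr2:35707648-35707677, shows that codon inside the longer reading frame.
Dab2ip-201 start: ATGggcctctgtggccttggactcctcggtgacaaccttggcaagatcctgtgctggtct
Dab2ip-204 start: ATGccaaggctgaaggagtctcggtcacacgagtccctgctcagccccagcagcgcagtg
Dab2ip-201 exon junction: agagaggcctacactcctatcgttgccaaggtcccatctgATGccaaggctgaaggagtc

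Nf1 lies on chr11:79339693-79581612, plus strand. Its rows are the full coding transcript Nf1-201, with 58 exons, the retained-intron transcripts Nf1-205 and Nf1-208, and the short processed transcript Nf1-207. The following stretches, which set the retained-intron rows apart from Nf1-201, run from the last 30 bases of a coding exon of Nf1-201, in capitals, into the intron that the row keeps. The boundary of Nf1-205 lies at chr11:79428662-79428721 and that of Nf1-208 at chr11:79568763-79568822. In Nf1-205, 2097 of 3851 bases belong to no other annotated transcript of the gene. No label or header says how reads of shared exons were divided between rows, so a gene's sum is firmer than any of its rows.
Nf1-205: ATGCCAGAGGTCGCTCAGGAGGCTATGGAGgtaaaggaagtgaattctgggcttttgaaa
Nf1-208: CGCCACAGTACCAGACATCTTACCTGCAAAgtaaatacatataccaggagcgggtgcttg

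**Figure D1:**
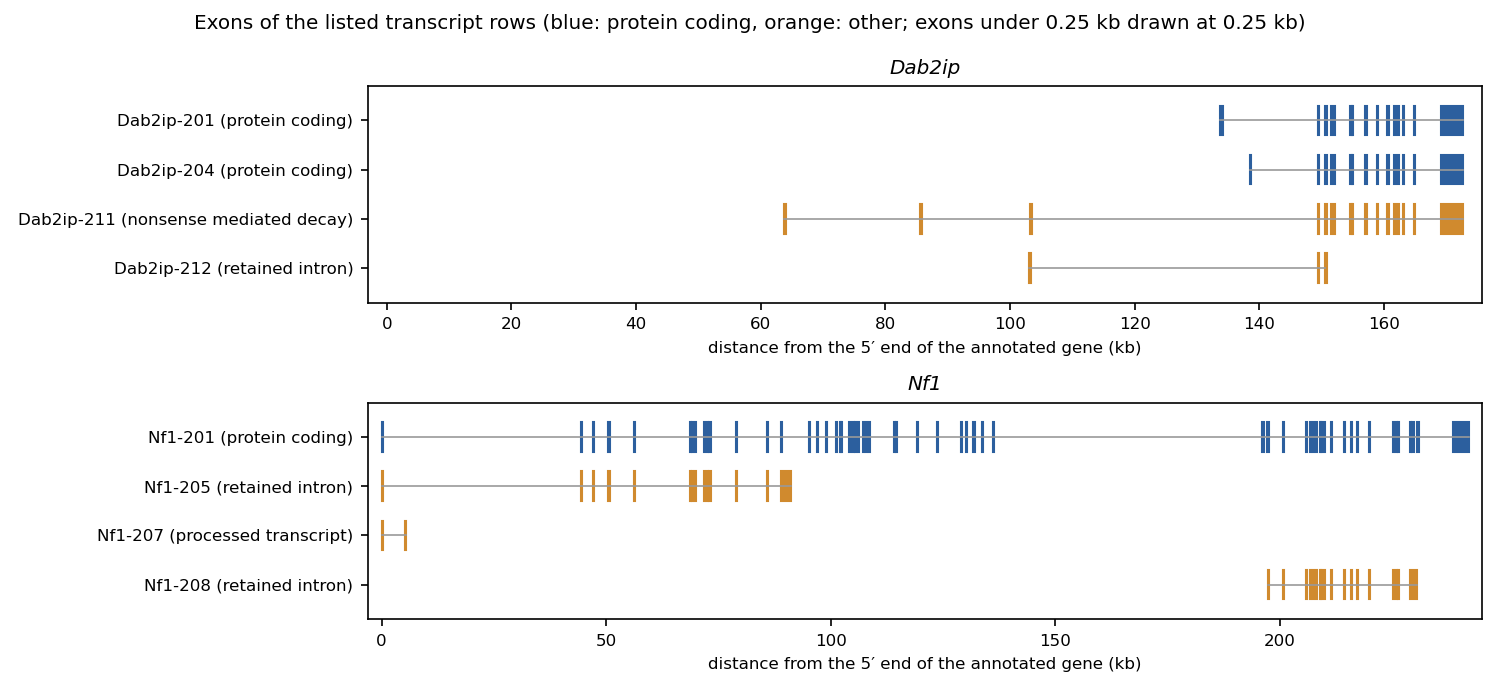
Exons of the listed Dab2ip and Nf1 transcript rows, plotted as distance in kb from the 5′ end of each annotated gene, with protein-coding rows in blue and other rows in orange. Dab2ip-201 and Dab2ip-204 differ only in the first exon, whereas Nf1-205, Nf1-207 and Nf1-208 each cover a part of Nf1-201.

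Dab2ip, a scaffold that restrains Ras and also takes part in TNF and ASK1 signalling, had nearly the same level in the Kif5A precipitates of both tissues and opposite levels in the IgG precipitates. In dorsal root, the gene sums were 0, 27 and 10 counts in IgG, 109, 69 and 119 in Kif5A, and 36, 11 and 72 in input. In sciatic nerve they were 374, 595 and 547 in IgG, 107, 81 and 111 in Kif5A, and 40, 30 and 188 in input. The 3 IgG libraries of dorsal root lay below all Kif5A libraries of that tissue, and the 3 IgG libraries of sciatic nerve lay above every other library of the series. As levels, Kif5A precipitates held 5.36 ± 1.22 CPM (SD, n = 3) in dorsal root and 5.69 ± 1.62 in sciatic nerve. IgG precipitates held 0.882 ± 1.07 CPM in dorsal root and 24.0 ± 5.48 in sciatic nerve. The level in sciatic nerve IgG was 4.58-fold that of its own input, without overlap, a pattern shown by 10.2% of the 13555 genes of that table with at least 10 counts.

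The fitted log2 ratio of Dab2ip in Kif5A over IgG was 2.61 (SE 1.34) in dorsal root and -2.08 (SE 0.74) in sciatic nerve. Over input, the log2 ratio of Dab2ip in Kif5A was 1.08 (SE 1.27) in dorsal root and 0.11 (SE 0.71) in sciatic nerve, both with overlap. Without input replicate 3 of the tissue these ratios were 1.97 in dorsal root and 1.23 in sciatic nerve, where that input library, at 10.7 CPM, was the only 1 to reach the Kif5A levels. Leaving out IgG replicate 2 of dorsal root, which held 27 of the 37 counts, moved the dorsal root ratio to 4.15. Adipocyte markers were also at their highest in the IgG libraries of sciatic nerve: the 6 genes of the list summed to between 12410 and 27490 CPM there, between 2000 and 12260 in Kif5A and between 1285 and 4345 in input of that tissue. In dorsal root the same list summed to between 34.4 and 57.5 CPM in all 9 libraries, with Plin1 and Cidec not listed. The part of those cells, or of the genes without a count in IgG, in the Dab2ip values was not tested.

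Both coding rows of Dab2ip were listed at 0 in all 3 IgG libraries of dorsal root. Dab2ip-201 had 86, 26 and 67 counts in Kif5A and 15, 0 and 23 in input, and Dab2ip-204 had 14, 31 and 44 in Kif5A and 17, 7 and 44 in input. Against a floor of 3 counts over the IgG group, Dab2ip-201 was at least 49.3-fold higher and Dab2ip-204 at least 24.5-fold higher in Kif5A. Rows at 0 in all IgG libraries made up 2.36% of the dorsal root rows with a summed Kif5A count of at least 50. That share includes rows with far higher sums than Dab2ip-201 (179) and Dab2ip-204 (89). Rows of like depth were not counted apart. The 37 IgG counts of the gene all came from Dab2ip-211, a nonsense-mediated decay transcript in the dorsal root table alone, with 0, 27 and 10 counts in IgG, 9, 12 and 8 in Kif5A and 4, 4 and 5 in input. Dab2ip-211 shares 5975 bases with Dab2ip-201 as well, and the part of the division of reads between these rows in the zeros was not tested.

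In sciatic nerve the IgG excess of Dab2ip was carried mainly by Dab2ip-201. That row had 261, 545 and 381 counts in IgG, 87, 15 and 28 in Kif5A, and 17, 23 and 90 in input. IgG lay above both other groups without overlap, and its summed CPM was 7.84-fold that of Kif5A. Dab2ip-204 had 99, 44 and 153 counts in IgG, 15, 53 and 63 in Kif5A, and 21, 7 and 85 in input, so its groups overlapped. Dab2ip-212, a short retained-intron row of this table alone, held 14, 6 and 13 counts in IgG, 5, 13 and 20 in Kif5A and 2, 0 and 13 in input.

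**Figure D2:**
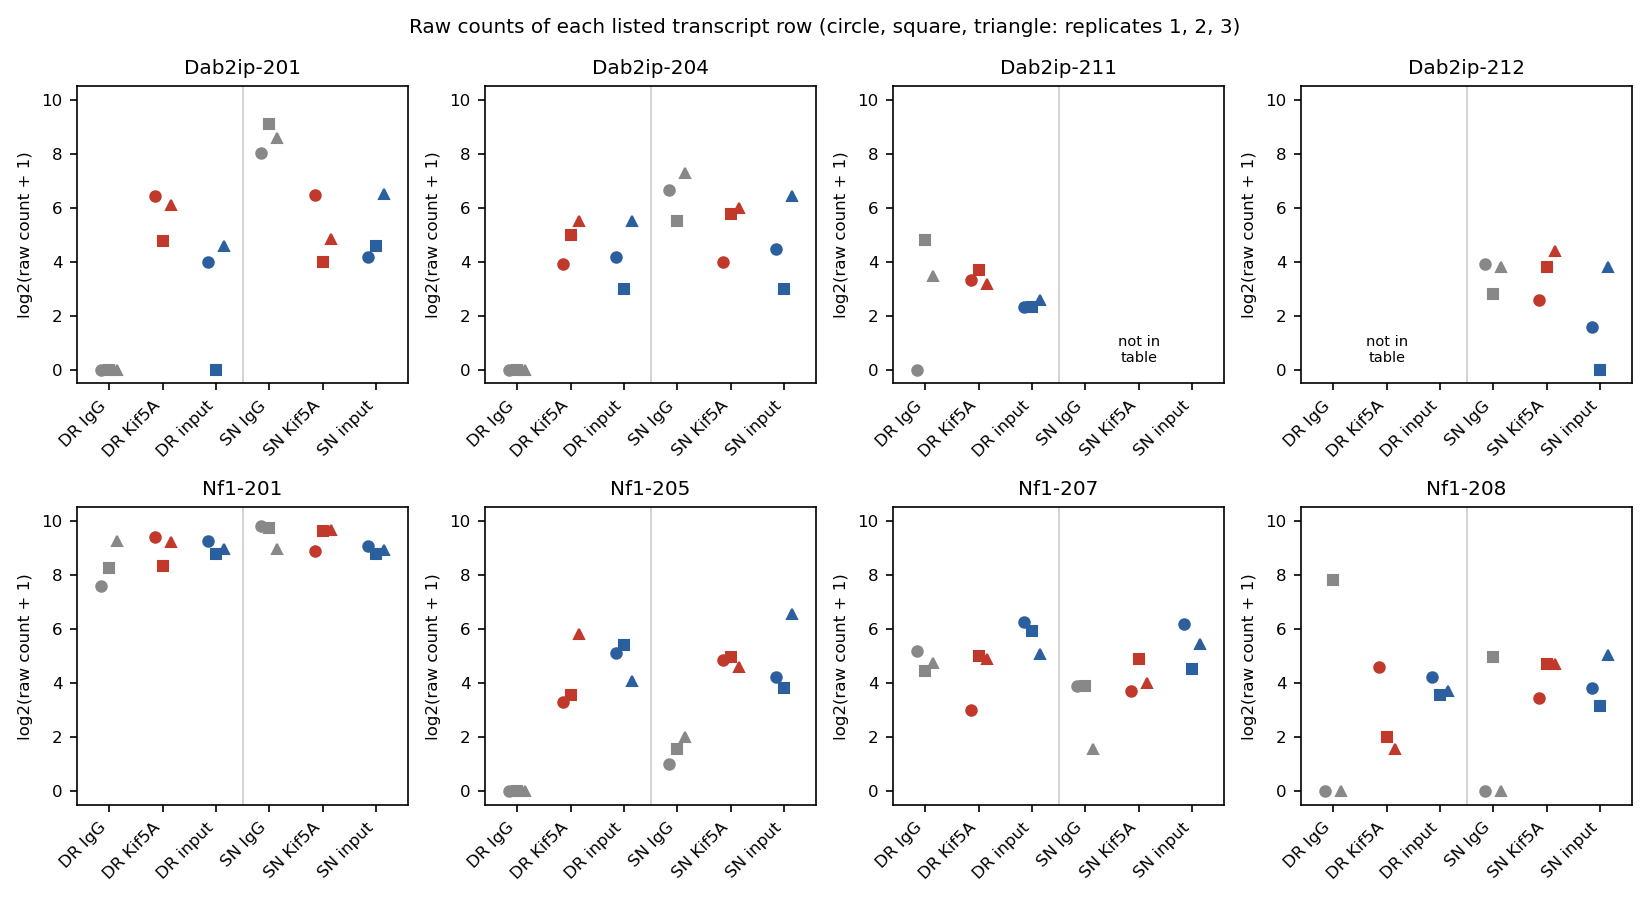
Raw counts of the Dab2ip and Nf1 transcript rows as log2(count + 1), by group, with circles, squares and triangles for replicates 1, 2 and 3 (DR, dorsal root; SN, sciatic nerve). Dab2ip-201, Dab2ip-204 and Nf1-205 sit at 0 in the 3 dorsal root IgG libraries, and Dab2ip-201 is highest in sciatic nerve IgG.

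Nf1, the neurofibromin gene, had overlapping levels in the groups of each tissue as a gene sum, while its retained-intron row Nf1-205 was nearly absent from IgG. Its gene sum stood at 31.3 ± 14.2 CPM in IgG, 32.1 ± 9.73 in Kif5A and 37.6 ± 3.53 in input of dorsal root (SD, n = 3 each). In sciatic nerve it stood at 37.0 ± 12.2, 41.9 ± 9.84 and 39.4 ± 2.18 CPM. All groups of a tissue overlapped. The inputs spread least, with a coefficient of variation of 9.38% in dorsal root and 5.52% in sciatic nerve, against 23.5% to 45.5% in the precipitates.

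Nf1-205 had 0, 0 and 0 counts in dorsal root IgG, 9, 11 and 55 in Kif5A, and 34, 42 and 16 in input. In sciatic nerve it had 1, 2 and 3 counts in IgG, 28, 30 and 23 in Kif5A, and 18, 13 and 94 in input. IgG lay below Kif5A and below input in both tissues, and Kif5A overlapped input in both. The share of all transcript rows whose groups separated without overlap was not counted, for Nf1-205 or any other row. Kif5A exceeded IgG at least 20.6-fold in dorsal root, against the floor of 3 counts, and 15.7-fold in sciatic nerve (95% Poisson interval 6.92 to 44.1). Such intervals and floors cover counting error only, since amplified reads are not independent molecules.

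Nf1-208, the other retained-intron row, had 225 counts in IgG replicate 2 of dorsal root and 0 in the other IgG libraries of that tissue, against 23, 3 and 2 in Kif5A. In sciatic nerve Nf1-208 again had counts in a single IgG library, with 0, 30 and 0, against 10, 25 and 25 in Kif5A. Nf1-207 was lower in Kif5A than in input in both tissues without overlap, with 7, 31 and 29 against 75, 60 and 33 counts in dorsal root and 12, 29 and 15 against 73, 22 and 43 in sciatic nerve after scaling to library size. In IgG, Nf1-207 had 36, 21 and 26 counts in dorsal root, overlapping both other groups, and 14, 14 and 2 in sciatic nerve, below both without overlap after scaling. Kif5A exceeded IgG 2.17-fold in summed CPM of Nf1-207 in sciatic nerve (95% Poisson interval 1.37 to 3.51). The coding row Nf1-201 held 1608 of 1778 Nf1 counts in the Kif5A libraries of dorsal root and 2076 of 2273 in those of sciatic nerve. Non-coding rows took 16.3% of the Nf1 counts of dorsal root inputs and 17.8% of those of sciatic nerve inputs.

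Rasa1, which is recruited to activated receptors through its SH2 domains, lies on chr13:85214780-85289130, minus strand, and was lower in Kif5A than in input of sciatic nerve. There its levels were 53.8, 55.3 and 52.1 CPM in Kif5A and 109, 90.5 and 55.8 in input. The groups did not overlap, but input replicate 3 lay close to the highest Kif5A library. IgG held 64.1, 112 and 54.0 CPM, overlapping both. In dorsal root the levels of Rasa1 were 79.0, 57.4 and 47.8 CPM in Kif5A, 63.6, 89.0 and 92.8 in input and 70.9, 149 and 73.2 in IgG, and all groups overlapped. The coding row Rasa1-201 carried nearly all of these counts, and the retained-intron rows Rasa1-206 and Rasa1-208 stood in the dorsal root table alone, with at most 18 counts in a library.

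Rasa2, a GAP1 family member, lies on chr9:96539300-96631617, minus strand, and was highest in the IgG precipitates of dorsal root. IgG held 103, 103 and 86.6 CPM, Kif5A 62.4, 71.8 and 56.8, and input 63.7, 58.1 and 59.1. IgG lay above both without overlap, 1.53-fold above Kif5A and 1.62-fold above input, and 11.5% of the 14779 genes of that table with at least 10 counts had IgG above input without overlap. The coding row Rasa2-201 showed the same order by itself, at 1540, 1318 and 1288 counts in IgG against 1120, 1227 and 1079 in Kif5A. The retained-intron row Rasa2-203 varied far more, with 0, 28 and 220 counts in these IgG libraries. In sciatic nerve Rasa2 stood at 71.6 ± 20.6 CPM in IgG, 71.3 ± 19.2 in Kif5A and 69.5 ± 24.5 in input (SD, n = 3 each), and the groups overlapped.

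Rasa3, which acts on Ras and Rap1, lies on chr8:13566948-13677603, minus strand, and had uneven counts between replicates. In dorsal root its single row had 26, 244 and 1 counts in IgG, 120, 246 and 30 in Kif5A, and 14, 7 and 19 in input. Kif5A lay above input without overlap, by 8.97-fold in mean CPM, yet IgG replicate 2 was higher than every Kif5A library after scaling. The fitted log2 ratio over input was 3.12 (SE 1.53), and it was 2.26 without Kif5A replicate 2 and 1.98 with the replicate number as a block. The coefficient of variation was 151% in IgG and 85.4% in Kif5A. The log2 ratio of Kif5A over IgG was 0.12 (SE 1.40) and became 3.06 without IgG replicate 2 and -0.74 without Kif5A replicate 2. In sciatic nerve the counts were 69, 18 and 47 in IgG, 45, 55 and 18 in Kif5A and 7, 11 and 56 in input, with overlap throughout.

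Rasal2, a Ras GTPase activator, lies on chr1:157135182-157412595, minus strand, and was the most abundant of the 6 mRNAs. In dorsal root it stood at 334, 518 and 489.5 CPM in IgG, 615, 436 and 563 in Kif5A and 585, 518 and 584 in input. In sciatic nerve it stood at 184, 252 and 339 CPM in IgG, 154, 175 and 323 in Kif5A and 261, 270.0 and 309 in input. The 3 groups overlapped within each tissue, and every sciatic nerve input lay below every dorsal root input. The coding row Rasal2-201 was lower in Kif5A than in input of sciatic nerve without overlap, at 0.684 of its summed CPM. The short coding row Rasal2-205 had 391, 614 and 1673 counts in Kif5A and 465, 350 and 1008 in input there, with overlap. Against IgG of sciatic nerve the 2 rows went opposite ways in summed CPM of Kif5A, 0.699-fold for Rasal2-201 and 2.09-fold for Rasal2-205, both with overlap. In dorsal root Kif5A exceeded IgG 1.20-fold for Rasal2-201, with overlap, and 1.25-fold for Rasal2-205, without overlap.

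**Figure D3:**
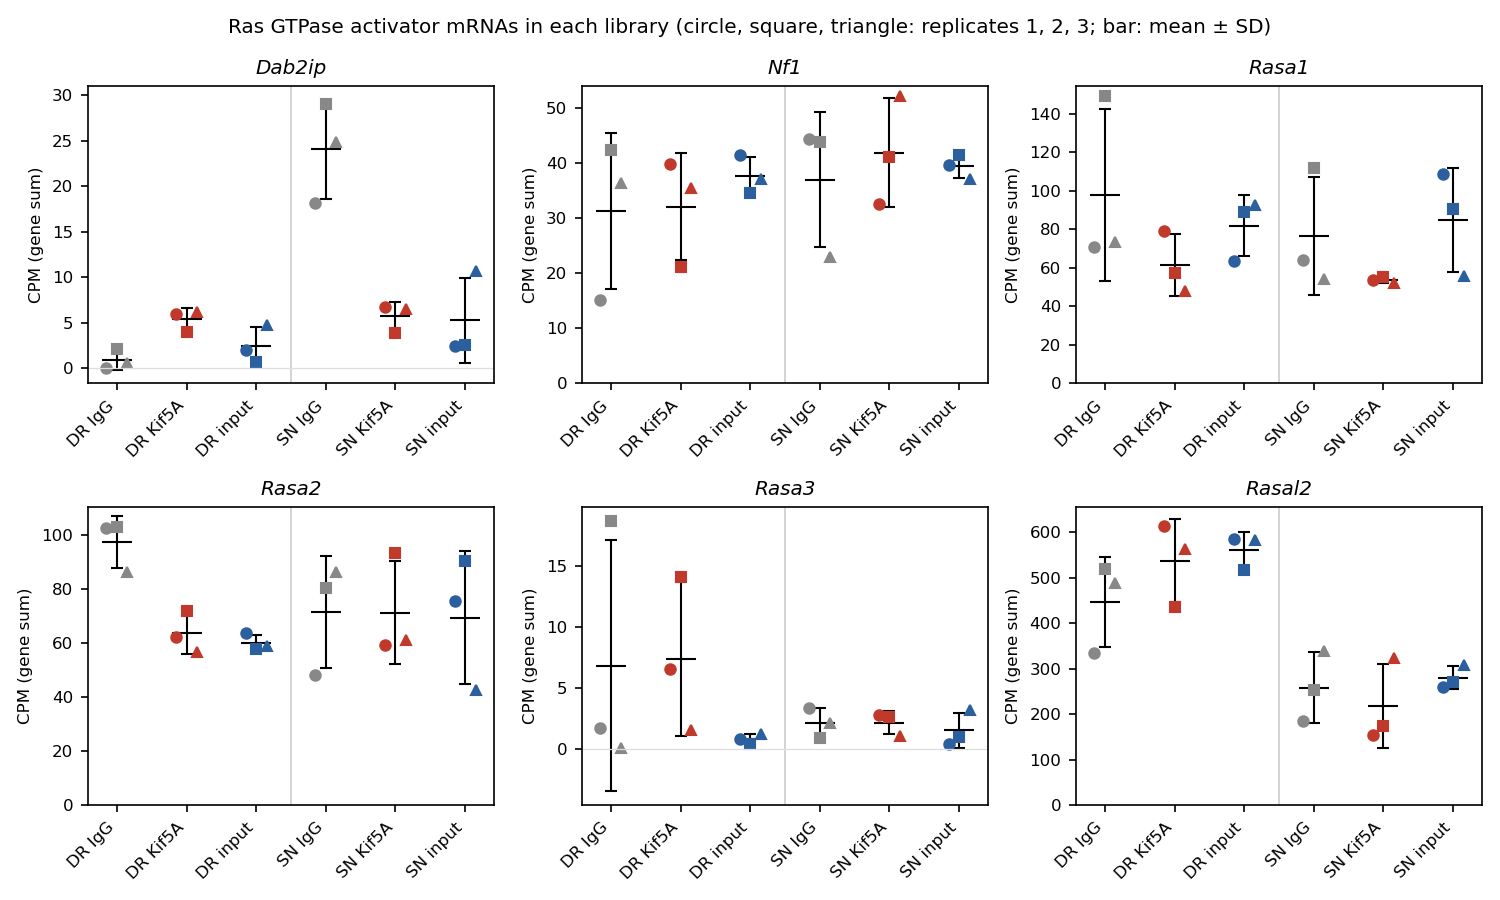
Gene-sum levels in CPM of the 6 Ras GTPase activators in each library, with the mean ± SD of each group of 3 (DR, dorsal root; SN, sciatic nerve). Dab2ip lies between 18.2 and 29.1 CPM in sciatic nerve IgG and at or below 10.7 CPM elsewhere, and Rasal2 inputs lie between 518 and 585 CPM in dorsal root and between 261 and 309 in sciatic nerve.

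Per kb of transcript, the longest coding rows, 1 per gene, kept a similar order in all groups. In dorsal root inputs the mean levels were 44.3 CPM per kb for Rasal2-201, 17.7 for Rasa1-201, 9.95 for Rasa2-201, 2.65 for Nf1-201, 0.188 for Rasa3-201 and 0.123 for Dab2ip-201. Each of the first 4 lay above the next without overlap there, while Rasa3-201 and Dab2ip-201 overlapped. The order depends on the row taken. In the same inputs the other coding row of Dab2ip, Dab2ip-204, had a mean of 0.237 CPM per kb, above Rasa3-201. The short row Rasal2-205 had a mean of 183, above Rasal2-201. In sciatic nerve inputs Rasal2-201 (24.0 CPM per kb) overlapped Rasa1-201 (18.6), which overlapped Rasa2-201 (11.01), and Rasa2-201 lay above Nf1-201 (2.75) without overlap. Dab2ip-201 reached 2.95 CPM per kb in sciatic nerve IgG, where it overlapped Nf1-201 at 3.01, and was at or below 0.504 in all other groups.

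Over the 6 genes, few groups of precipitates separated, and their shares stand beside those of all genes. All 6 passed the filter on low counts in every comparison. For Kif5A against IgG in dorsal root, Dab2ip lay above without overlap (9.09% of 14150 genes did) and Rasa2 below (5.13% of genes). For Kif5A against IgG in sciatic nerve, Dab2ip alone separated, below IgG, as did 6.7% of 13272 genes, and 0 of the 6 lay above (9.52% of genes). For Kif5A against input, Rasa3 lay above in dorsal root (16.3% of genes) and Rasa1 below in sciatic nerve (8.83% of genes), while 0 of the 6 lay below in dorsal root (14.4% of genes) or above in sciatic nerve (8.54% of genes). Because the 6 genes were chosen with Kif5A against IgG known, nothing is read from these counts. The median log2 ratio of the 6 in Kif5A over IgG was 0.08 in dorsal root and -0.13 in sciatic nerve, against -0.05 and -0.06 over all genes. Kif5A over input gave medians of -0.02 and 0.08, against 0.05 and 0.04 (these comparisons share their Kif5A libraries with those against IgG).

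The authors' deposited table also gives a log2 fold change for each transcript row. For Kif5A against IgG in dorsal root, the authors' deposited table lists 9.19 for Dab2ip-201, 7.86 for Dab2ip-204 and 7.28 for Nf1-205, the 3 rows that stood at 0 in IgG with more than 3 counts in Kif5A, so these values depend on how zeros were handled. For sciatic nerve the authors' deposited table lists -2.99 for Dab2ip-201, -0.87 for Dab2ip-204 and 4.14 for Nf1-205. For Nf1-208 and Rasa3-201 in dorsal root, the authors' deposited table lists log2 values of -0.87 and 1.05 for Kif5A against IgG. The ratios of summed CPM of these rows, on a linear scale and so not to be set directly beside log2 values, were 0.103-fold and 1.21-fold. IgG replicate 2 held all 225 IgG counts of Nf1-208 and 244 of the 271 of Rasa3-201. Against input, the authors' deposited table lists -0.95 for Nf1-205 in dorsal root and -0.29 in sciatic nerve.

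**Figure D4:**
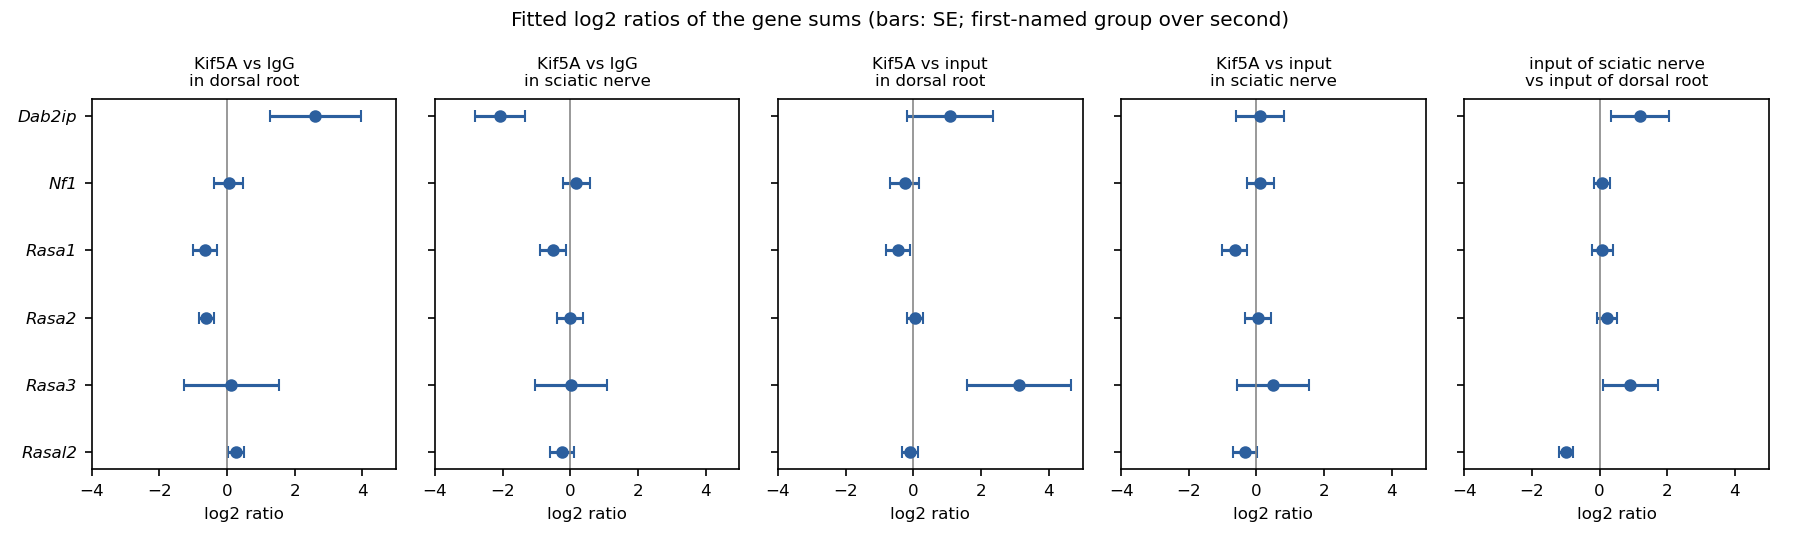
Fitted log2 ratios of the gene sums with their SE as bars, 1 panel per comparison, first-named group over second. Dab2ip stands at 2.61 in Kif5A over IgG of dorsal root and at -2.08 in sciatic nerve, Rasa3 at 3.12 in Kif5A over input of dorsal root, and Rasal2 at -0.99 in the inputs.

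The inputs of both tissues took no part in the choice of the genes, and their comparison asks whether the axoplasm of sciatic nerve and dorsal root holds different amounts of these mRNAs. Rasal2 was lower in sciatic nerve, at 261, 270.0 and 309 CPM against 585, 518 and 584 in dorsal root, lower in all 3 libraries. The log2 ratio was -0.99 (SE 0.21), a fold of 0.504, with an adjusted p of 0.0328 by edgeR's quasi-likelihood test with Benjamini-Hochberg adjustment. Over all genes tested, 503 of 12215 passed, which is 4.12%: 285 were higher and 218 lower in sciatic nerve, and 1 of the 6 activators passed. Without overlap, Rasal2 alone lay lower in sciatic nerve (11.1% of genes did) and 0 of the 6 lay higher (9.97% of genes did). The call of Rasal2 was lost in 5 of 6 fits that left out 1 input library each, with adjusted p between 0.111 and 0.193 by edgeR, and held without sciatic nerve input replicate 3 (adjusted p = 0.00056). Over these fits the log2 ratio stayed between -1.08 and -0.96. Fewer cells of a type and less RNA per cell cannot be told apart in such bulk libraries. Summed neuronal markers were also lower in sciatic nerve inputs (185 ± 20.6 against 330 ± 16.8 CPM; SD, n = 3 each; 7 and 9 of 10 markers listed), with Scn10a and Avil at 0 or not listed there. Schwann lineage markers stood at 3789 ± 992 against 5078 ± 246 CPM and adipocyte markers at 3196 ± 1666 against 46.1 ± 5.70. The part of these cells in the Rasal2 difference was not tested.

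The other 5 activators did not pass in the inputs. Dab2ip had a log2 ratio of 1.19 (SE 0.87, adjusted p = 0.643 by edgeR), and without sciatic nerve input replicate 3, which held 175 of its 243 counts on the rows compared, the ratio was 0.16. Without dorsal root input replicate 3 it was 2.16. Rasa3 had 0.91 (SE 0.81, adjusted p = 0.727 by edgeR), and without the same library -0.28. That library stood apart from the other inputs of its group, with fibroblast markers at 7903 CPM against 19780 and 22290. It was not alone: replicate 3 of each sciatic nerve group had the highest myelinating Schwann cell and the lowest adipocyte marker sums of that group. Nf1 had a log2 ratio of 0.08 (SE 0.23), Rasa1 of 0.08 (SE 0.30) and Rasa2 of 0.22 (SE 0.30), with adjusted p of 0.845 or more by edgeR.

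The wider Ras pathway was followed with a list of 61 genes, of which 54 were listed in at least 1 table. The list was drawn up with earlier results of these data known. In the inputs, 2 of 45 tested genes of the list were higher in sciatic nerve (2.33% of all genes were) and 0 lower (1.78% of all genes were) by edgeR. At an unadjusted p under 0.05 these counts were 8 and 0. Over all genes, 1781 of 12215 had an unadjusted p under 0.05 in either direction. By DESeq2 the list gave 6 higher and 0 lower of 45, while 1061 of all genes were called in either direction. With 1 input left out, edgeR called 0 genes of the list in 4 of 6 fits. Without sciatic nerve input replicate 2 it called 1 higher, with 335 called over all genes. Without sciatic nerve input replicate 3 it called 10 higher and 2 lower of 47, with 2538 called over all genes. Shares of all genes by direction were not counted for these fits. Rasgrp2, an exchange factor that loads Rap with GTP, stood at 22.6 ± 6.52 CPM in sciatic nerve and 7.15 ± 1.03 in dorsal root (SD, n = 3 each). Its log2 ratio was 1.68 (SE 0.34, adjusted p = 0.0278 by edgeR, higher in all 3 libraries). Dok2, an adaptor that binds p120RasGAP, stood at 56.2 ± 10.3 against 24.8 ± 3.07 CPM, with a log2 ratio of 1.20 (SE 0.26; adjusted p = 0.0377 by edgeR, higher in all 3 libraries). Both calls were lost in a fit of all 18 libraries. With 1 input left out, Rasgrp2 kept its call in 2 of 6 fits and Dok2 in 1, with adjusted p from 0.00402 to 0.224 by edgeR over both genes.

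By role, the medians of the list in sciatic nerve over dorsal root inputs stood close to the median of all genes, 0.06, for the Ras family GTPases (0.15, 12 genes) and the Raf to ERK kinases and scaffolds (0.14, 9 genes). The Sprouty and Spred inhibitors, which damp receptor signalling to Ras, had a median of 0.75, with all 5 tested genes above 0 and 0 called by edgeR (2 at an unadjusted p under 0.05). Receptor adaptors had a median of 0.22 over 7 genes and exchange factors of 0.28 over 4. The binding partners of Rasa1 and Dab2ip had a median of 0.185 over 8 genes. Of these, 1 was called higher by edgeR, Dok2, and 2 were higher at an unadjusted p under 0.05.

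In the precipitates, 0 genes of the list passed in the main edgeR fits of the 4 comparisons. For Kif5A against IgG, 52 were tested in dorsal root and 48 in sciatic nerve, with 4 and 2 at an unadjusted p under 0.05. DESeq2 called 1 gene in each, Arhgap35 in dorsal root and Shc2 in sciatic nerve, both higher in Kif5A. For Kif5A against input, 2 and 0 genes were under 0.05 before adjustment. In dorsal root, Rap2a was called, higher in Kif5A, by DESeq2 and by edgeR with only the 6 libraries compared. In sciatic nerve DESeq2 called 0 genes of the list. Over all genes, edgeR called 0% of 14150 for Kif5A against IgG in dorsal root, 0.00753% of 13272 in sciatic nerve, 0.00707% of 14150 against input in dorsal root and 0% in sciatic nerve, while 1665, 1415, 1330 and 721 genes had an unadjusted p under 0.05. DESeq2 called 788, 599, 335 and 56 genes.

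**Figure D5:**
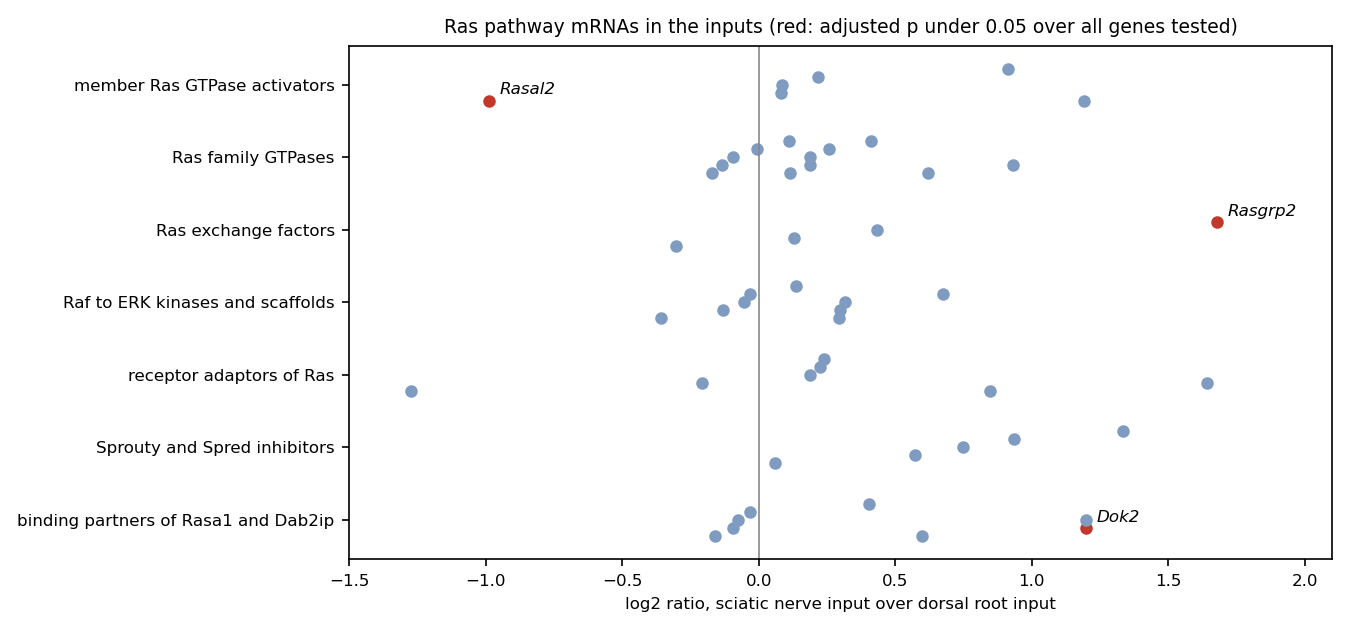
Log2 ratios of Ras pathway mRNAs in sciatic nerve over dorsal root inputs, 1 point per gene, grouped by role, with genes of adjusted p under 0.05 over all genes tested in red. Rasal2 stands at -0.99 among the activators, Rasgrp2 at 1.68 and Dok2 at 1.20.

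For each activator, the gene most like it over the 18 libraries was found by Pearson's r of log2(CPM + 0.5) among 12680 genes, a description over libraries that share groups and depth. Dab2ip was most like Bik (r = 0.906), Gpd1 (0.831) and Iba57 (0.831). Bik, a BH3-only gene that promotes cell death, had 0, 0 and 1 counts in dorsal root IgG and 236, 430 and 290 in sciatic nerve IgG, low and high in the same groups as Dab2ip. Iba57 also had few counts in dorsal root IgG, at 1, 0 and 14, but at 6.74 ± 1.62 CPM in sciatic nerve IgG it did not exceed its Kif5A level of 6.78 ± 3.56. Rasal2 was most like Dner (r = 0.918), a neuronal Notch-pathway gene, at 53.7 ± 3.13 CPM in dorsal root inputs and 2.23 ± 1.67 in sciatic nerve inputs. Nf1 was most like Cpsf3l (0.817), Rasa1 like Ppp2r2a (0.784), Rasa2 like Fam208b (0.852) and Rasa3 like Fance (0.832).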

How the data were processed

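The deposited tables, 1 per tissue, hold raw counts of each Ensembl transcript in 9 libraries, with the authors' log2 fold changes and p-values (false discovery rates included) per the file headers. Libraries were made with SMART-Seq v4 per the labels' protocols, a low-input kit that does not mark strand. The submitters' processing notes name CASAVA 1.8.2, edgeR and the build mm10 (GRCm38). No label, header or note names the aligner, the counter or the annotation release. A further 42 per-library columns were not used. Rows with no gene name (283 and 266, holding 0.138% to 0.237% of counts) were left out.

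Transcript counts were summed per gene symbol and fitted with edgeR 4.0.16 in R 4.3.3 (TMM, filterByExpr, robust quasi-likelihood fit, 9 libraries of a tissue together, Benjamini-Hochberg threshold 0.05, two-sided). Inputs of the tissues were compared on transcripts in both tables. The fits were tested on simulated data with large known changes. Same-numbered inputs of the tissues deviated together (correlations 0.232, 0.135 and 0.386), although the labels do not state that they share animals. Exons and sequences were read from GENCODE M21. Exons of the listed rows overlap other genes at 12 bases (Rasa1 and Ccnh) and 244 bases (Rasal2-201 and 2810025M15Rik).

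The genes and lists were chosen with earlier results of these data known. Named were the 6 activators, up to 3 called genes of the pathway list in each direction and comparison, the gene most like each activator (3 for Dab2ip) and Kif5a. Genes called by DESeq2 1.42.0 but not by the main edgeR fits were named after their values were seen. Alternatives were DESeq2, no filter, library size alone, a replicate block, other sets of libraries or transcripts, and leaving out each library.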

Additional observations from a re-analysis of the deposited data

Results flagged for a closer look

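The log2 ratio of Dab2ip in Kif5A over IgG differed by 4.68 between dorsal root and sciatic nerve, because every Kif5A library lay above every IgG library in dorsal root and below every IgG library in sciatic nerve. The difference between the tissues was not tested, since the gene was chosen with both comparisons known. The Kif5A levels were 5.36 ± 1.22 and 5.69 ± 1.62 CPM (SD, n = 3 each), and the IgG levels 0.882 ± 1.07 and 24.0 ± 5.48 CPM.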

How the results depend on the processing

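Counts of called genes depended on the tool and on single libraries. For Kif5A against IgG in dorsal root, the count of 0 became 788 with DESeq2 and ranged from 0 to 621 with 1 library left out (47, 138 and 621 without IgG replicate 1, 2 and 3). For Kif5A against IgG in sciatic nerve, the count of 1 became 599 with DESeq2 and 0 with only the 6 libraries compared, and ranged from 0 to 6 with 1 library left out. For Kif5A against input, the dorsal root count of 1 became 335 with DESeq2, 0 with library size alone, 0 with the replicate block and 292 with only the 6 libraries compared, and ranged from 0 to 1 with 1 library left out. The sciatic nerve count of 0 became 56 with DESeq2 and ranged from 0 to 3. For the inputs, the count of 503 became 1061 with DESeq2 and 180 with all 18 libraries in 1 fit, and ranged from 220 to 2538 with 1 library left out (298 and 335 without sciatic nerve input replicate 1 and 2, 2538 without replicate 3, and 228, 220 and 279 without dorsal root input replicate 1, 2 and 3). The cause was not tested. With the replicate block, the inputs gave 682 calls and Rasal2 remained called (adjusted p = 0.0303 by edgeR). The other counts did not change under the block (0, 1 and 0). In the comparisons with precipitates, same-number correlations were all above 0 and ranged from 0.029 to 0.317. In sciatic nerve, some marker sums of same-numbered libraries also moved together. In IgG, Kif5A and input, adipocyte sums were lowest in replicate 3 (12410, 2000 and 1285 CPM). Myelinating Schwann cell sums were highest there (21250, 20810 and 24550 CPM). Fibroblast sums were lowest in replicate 3 of IgG and input, but in replicate 1 of Kif5A. Neither the correlations nor these sums settle whether equal numbers share animals, and the labels do not say so. The main fits took the numbers as names, without pairing.

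Rasal2 in the inputs kept its direction in all 12 alternatives and lost its call in 6 (adjusted p 0.177 by edgeR with all 18 libraries). Among input ratios that did not pass, leaving out 1 library turned the sign of 3 genes. Rasa1 ranged from -0.181 to 0.306 (-0.181, -0.00042 and -0.0698 without sciatic nerve input replicate 1, replicate 2 and dorsal root input replicate 1), Rasa2 from -0.0494 to 0.465 (below 0 without sciatic nerve input replicate 2) and Rasa3 from -0.28 to 1.34 (below 0 without sciatic nerve input replicate 3). In the comparisons with precipitates, each of the 6 genes had 12 recomputed log2 ratios per comparison, and 5 of all these values moved by more than 1 SD. That SD is the gene's own spread between replicates, so the rule can hardly flag a gene with uneven counts. Rasa3 in Kif5A over IgG of dorsal root went from 0.12 to 3.06 without IgG replicate 2 and was not flagged. That rule was not applied to the input ratios, where Dab2ip ranged from 0.157 to 2.16. Dab2ip in Kif5A over IgG of dorsal root became 9.33 on transcripts in both tables, where its IgG counts are all 0. At 0 to 30 counts per library, as in several Dab2ip, Nf1 and Rasa3 rows, counts limit what can be told.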
